A study of Mus musculus with 15 samples.

Results

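The regions of 3 chromatin features were examined at 10 genes of fatty acid and glycerolipid synthesis in mouse bone marrow-derived macrophages (BMDMs). The 10 genes were Srebf1, Acaca, Fasn, Elovl6, Scd1, Scd2, Lpin1, Lpin2, Dgat1 and Dgat2, chosen by name among 21938 protein-coding genes of the GENCODE M21 annotation of mm10. Each gene was read over a window made of its body and 5 kb upstream, and the level of a feature was the percent of that window covered by called regions. Lpin1 had been shown as an example by the study on these libraries, so its direction is not independent evidence.

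Chromatin was profiled by CUT&RUN, which sequences the DNA that an antibody-guided nuclease cuts loose around a chromatin protein. Acetylation of histone H3 at lysine 27 (H3K27ac) marks active promoters and enhancers. Trimethylation at lysine 36 (H3K36me3) is laid down over transcribed gene bodies behind elongating RNA polymerase II and is usually densest toward the 3′ end. H3.3 is the histone H3 variant that is placed outside DNA replication. Wild-type (WT) mice carried floxed H3f3a fl/fl and H3f3b fl/fl alleles, which encode H3.3, without Cre. H3.3 conditional knockout (cKO) mice carried the same floxed alleles plus LysM cre/cre, which expresses Cre from the Lyz2 locus of myeloid cells. H3.3 itself was mapped with an HA antibody in a separate line, H3f3b-HA, whose H3f3b gene encodes a tagged protein and whose floxed state the labels do not give. All mice were of C57BL/6 background, of both sexes and 8 to 10 weeks old, and marrow was cultured for 6 to 8 days with medium conditioned by L929 cells. The study described the deletion of H3f3b as variable between preparations. Lists of 10 libraries were used, 2 of H3.3-HA and, for each mark, 2 of WT and 2 of cKO, and the 5 IgG samples entered only as controls for calling regions.

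In fatty acid synthesis, Srebf1 encodes the transcription factor that switches on the pathway. Acetyl-CoA carboxylase (Acaca) makes malonyl-CoA, fatty acid synthase (Fasn) builds palmitate from it, Elovl6 adds carbons and the stearoyl-CoA desaturases Scd1 and Scd2 introduce a double bond. In glycerolipid synthesis, the lipins Lpin1 and Lpin2 remove the phosphate of phosphatidic acid to give diacylglycerol, and Dgat1 and Dgat2 acylate diacylglycerol to triacylglycerol. Macrophages use these lipids for membranes, lipid droplets and inflammatory signalling.

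H3K36me3 libraries held 15086387 and 14027132 tags in WT and 23782914 and 23503055 in cKO, so their depth differed with genotype. H3K27ac libraries held 28366343 and 16444864 tags in WT and 29988098 and 25560110 in cKO, and H3.3-HA libraries 6951296 and 5365319. Regions held 47.1% and 50.2% of tags in WT H3K36me3 and 19.3% and 46.5% in cKO. For H3K27ac they held 24.1% and 21.5% in WT and 11.8% and 17.8% in cKO. The part of depth and of these shares in the results was not tested. The cKO lists were not alike in extent. H3K36me3 regions covered 90.7 Mb in cKO replicate 1 and 163 Mb in cKO replicate 2, against 164 and 170 Mb in WT, and H3K27ac regions covered 46.2 and 62.0 Mb in cKO against 89.6 and 74.8 Mb in WT. Values for cKO H3K36me3 replicate 2 alone are therefore given beside the main ones. The controls named in the file headers differed between WT and cKO, so genotype and control cannot be told apart. All 8 macrophage markers held an H3K36me3 region in all 4 libraries, and none of the 5 neutrophil, 5 T cell or 5 erythroid markers did in any. Summed H3K36me3 levels of the macrophage markers were 460 and 490 percentage points in WT and 499 and 614 in cKO. With H3K27ac they numbered 8 in each WT library and 7 and 8 in cKO, with summed levels of 317 and 270 points in WT and 207 and 237 in cKO. Of 5 progenitor markers, 2 held H3K36me3 in WT replicate 1 and 2 in cKO replicate 2, and of 5 B cell markers 1 did, in cKO replicate 2. For H3K27ac, progenitor markers with a region numbered 2 in each WT library and 4 in each cKO library, with summed levels of 9.23 and 2.07 percentage points in WT and 7.54 and 22.2 in cKO, and Gata2 held none. Neutrophil markers with H3K27ac numbered 1 in each WT library and 2 in each cKO library, with 16.0 and 7.19 points in WT and 10.4 and 30.7 in cKO, and Ly6g and S100a8 held none. B cell and adipocyte markers with H3K27ac numbered 1 or 2 in each library, T cell and erythroid markers at most 1. Of 5 adipocyte markers, 2 held H3K36me3 in both WT libraries, with a summed level of 41.0 and 50.1 percentage points in WT and 15.9 and 32.7 in cKO, while Adipoq, Lep and Cidec held none. The part of these markers in the results was not tested, and fewer cells with a mark cannot be told apart from less of the mark per cell. The lists did not show the deletion, as both cKO H3K27ac libraries covered more of the H3f3a and H3f3b windows than both WT libraries. H3K36me3 covered 5.84% and 7.78% of the H3f3b window in WT and 21.7% and 24.2% in cKO, and its groups overlapped at H3f3a. At H3f3a only exon 2 was floxed, so coverage of the whole window could not show its loss. Every direction below therefore rests on the labels. The study measured the loss of H3.3 by qRT-PCR, RNA-seq and western blot, data not analysed here.

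H3K36me3 coverage was lower in both cKO libraries than in both WT libraries at 6 of the 8 genes that held a region, namely Srebf1, Acaca, Fasn, Scd2, Lpin1 and Dgat1. Among all 11975 coding genes with an H3K36me3 region, 37.7% had both cKO libraries lower and 7.85% had both higher, so lower values were common. None of the 10 genes was higher in both. The size of the difference set a subset apart as a description. Lpin1 kept 13.8% of its WT mean, Acaca 13.8% and Scd2 17.7%, while Dgat1 kept 52.2%, Srebf1 66.0%, Fasn 76.0% and Lpin2 84.98%. The median over 8853 genes with more than 10% coverage in WT was 77.7%. In cKO replicate 2 alone that median was 100%, and the 3 genes kept 23.9%, 20.4% and 28.8%. Scd1 and Dgat2 held no H3K36me3 region in any library, and Elovl6 held a single one in WT replicate 2.

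For H3K27ac, 6 of 10 genes were lower in both cKO libraries than in both WT libraries, namely Srebf1, Acaca, Fasn, Elovl6, Scd2 and Lpin1. The share of all 12767 coding genes with an H3K27ac region was 38.2% in that direction and 17.4% in the other. None of the 10 genes was higher in both. When each library was scaled to equal covered length, the share of lower genes among those with non-overlapping groups turned from 68.7% to 37.6% for H3K27ac and from 82.8% to 50.6% for H3K36me3. Under that scaling the same 6 genes stayed lower for H3K27ac, with Lpin2 and Dgat1 higher in both cKO libraries. For H3K36me3 Acaca, Scd2, Lpin1 and Dgat1 stayed lower and none of the 10 genes was higher. Of all genes, 22.7% were then lower and 37.7% higher for H3K27ac, and 29.3% and 28.6% for H3K36me3.

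**Figure D1:**
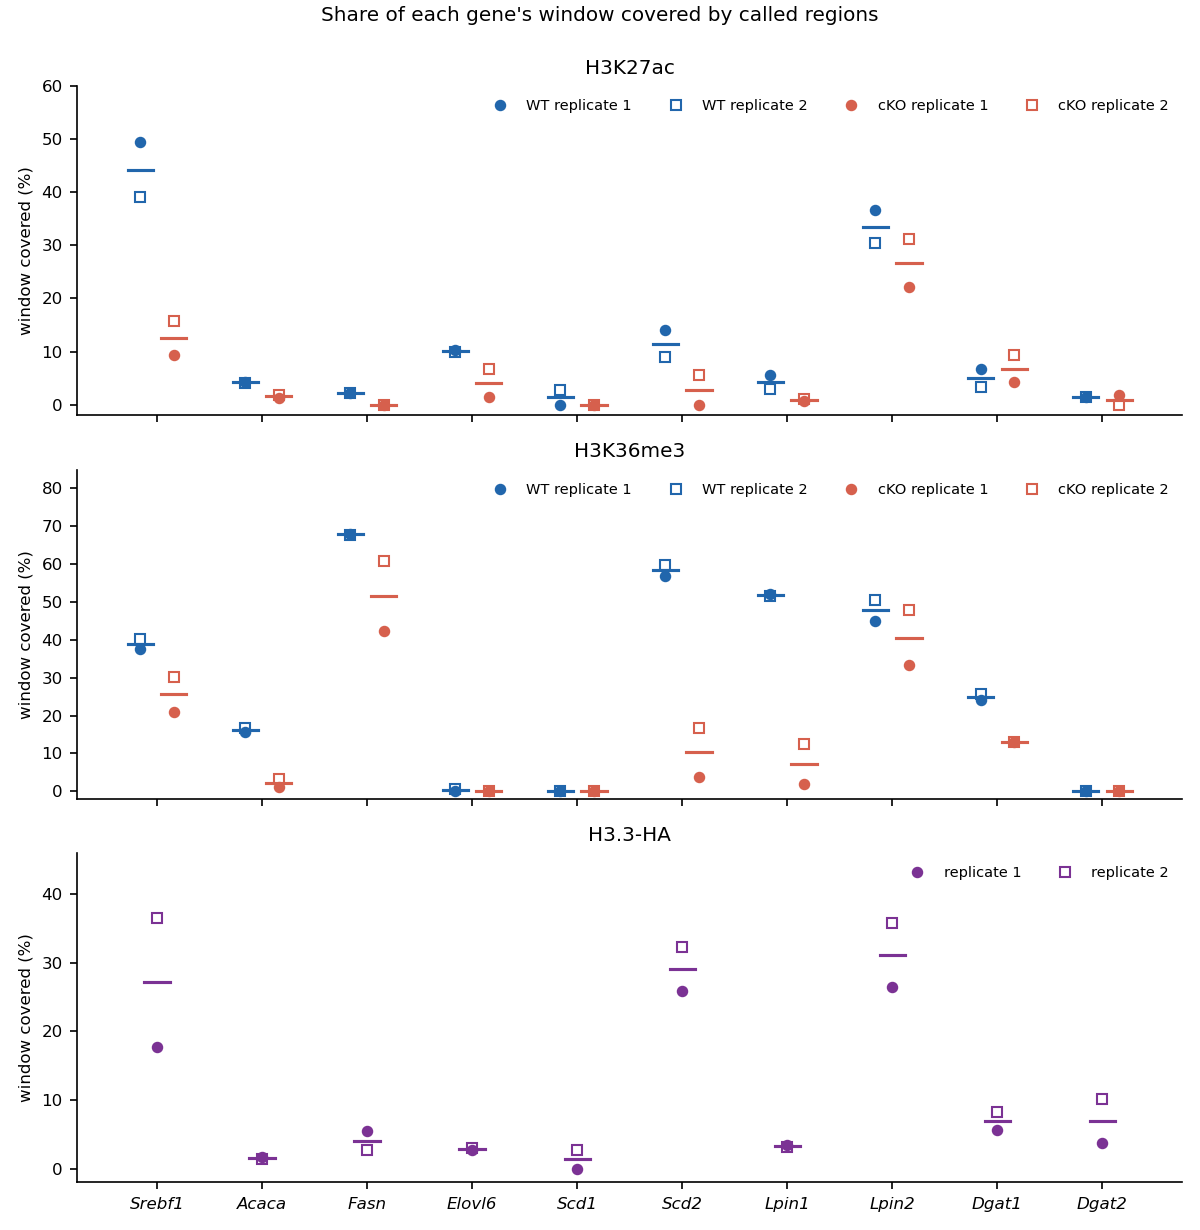
Percent of each gene's window covered by H3K27ac, H3K36me3 and H3.3-HA regions (y axes) in each library, with filled circles for replicate 1, open squares for replicate 2 and bars for the mean of 2 libraries. WT (blue) and cKO (red) stand far apart for H3K36me3 at Scd2 (58.4% and 10.3%) and Lpin1 (51.9% and 7.13%) and close together at Lpin2 (47.8% and 40.6%).

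The mean over the 10 genes summarized each library. For H3K36me3 it was 29.9% and 31.3% in WT and 11.6% and 18.5% in cKO, a difference of -15.6 percentage points between means of 30.6% ± 0.981 and 15.05% ± 4.81 (SD, n = 2 each; exact two-sided permutation p = 0.333). For H3K27ac it was 13.1% and 10.5% in WT and 4.09% and 7.14% in cKO, a difference of -6.17 points (n = 2 each; exact two-sided permutation p = 0.333). Scaled to equal covered length the differences shrank to -9.22 points for H3K36me3 and -2.81 for H3K27ac, and with lists of equal number the latter was -3.87. An exact test of 2 against 2 libraries cannot give a p below 0.333. Over all coding genes the same differences were -3.50 and -1.03 points, with overlapping groups (n = 2 each; exact permutation p = 0.667 for both).

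A test of each gene used limma on the arcsine square-root of the covered fraction, fitted over all genes with a region. With Benjamini-Hochberg adjustment no gene of the genome passed 0.05 for either mark. An unadjusted limma p under 0.05 with lower coverage in cKO was held by 4 of the 10 genes for H3K27ac (Srebf1, Acaca, Fasn and Lpin1), where 19.2% of all genes had one, and by 3 of 8 for H3K36me3 (Acaca, Scd2 and Lpin1), where 8.92% did. None of the 10 had one with higher coverage, against 7.91% and 2.17% of all genes. The limma adjusted p-values of the 10 genes began at 0.0601 for H3K27ac, at Fasn, and at 0.220 for H3K36me3, at Lpin1. The count of 0 for H3K27ac depended on the settings, as 608 genes were called lower and 414 higher when a region in at least 2 libraries was required. For H3K36me3 5257 genes were called lower and 255 higher without cKO replicate 2, and 59 lower and 26 higher with no filter.

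Lpin1 and Lpin2 encode enzymes of the same step, and their H3K36me3 values parted in cKO. Lpin1 (chr12:16535669-16610966, minus strand) was covered over 52.0% and 51.7% of its window in WT and over 1.87% and 12.4% in cKO. Its WT libraries lay within a percentage point of each other and far above both cKO libraries. Lpin2 (chr17:71182560-71249817, plus strand) was covered over 45.0% and 50.6% in WT and over 33.3% and 48.0% in cKO. The groups overlapped at Lpin2, and its cKO replicate 2 was at 100% of the WT mean. Lpin1 minus Lpin2 was 4.05 ± 4.18 points in WT and -33.5 ± 2.99 in cKO, a difference of -37.5 points (SD, n = 2 each; exact two-sided permutation p = 0.333). The limma adjusted p was 0.220 at Lpin1 (difference -44.7 points) and 0.727 at Lpin2 (-7.18 points).

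In percentage points the difference was wider past the midpoint of the gene body, where H3K36me3 is dense, than before it. Past the midpoint of the Lpin1 body, 92.2% and 91.3% was covered in WT against 3.99% and 25.8% in cKO. Past the midpoint of Lpin2 the values were 92.7% and 93.2% in WT and 68.7% and 98.2% in cKO. The body of Lpin1 before its midpoint held 18.8% and 18.9% in WT and 0% and 0.667% in cKO, so relative to WT less was kept there than past the midpoint. No H3K36me3 region was counted as WT-only at Lpin1 by the rule that both WT libraries and neither cKO library overlap it, since short cKO regions touched the long WT ones. Such regions were found at 2 of 8 genes, Srebf1 and Acaca, where 23.6% of all genes with an H3K36me3 region had a WT-only region and 8.47% a cKO-only one. None of the 8 held a cKO-only region.

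**Figure D2:**
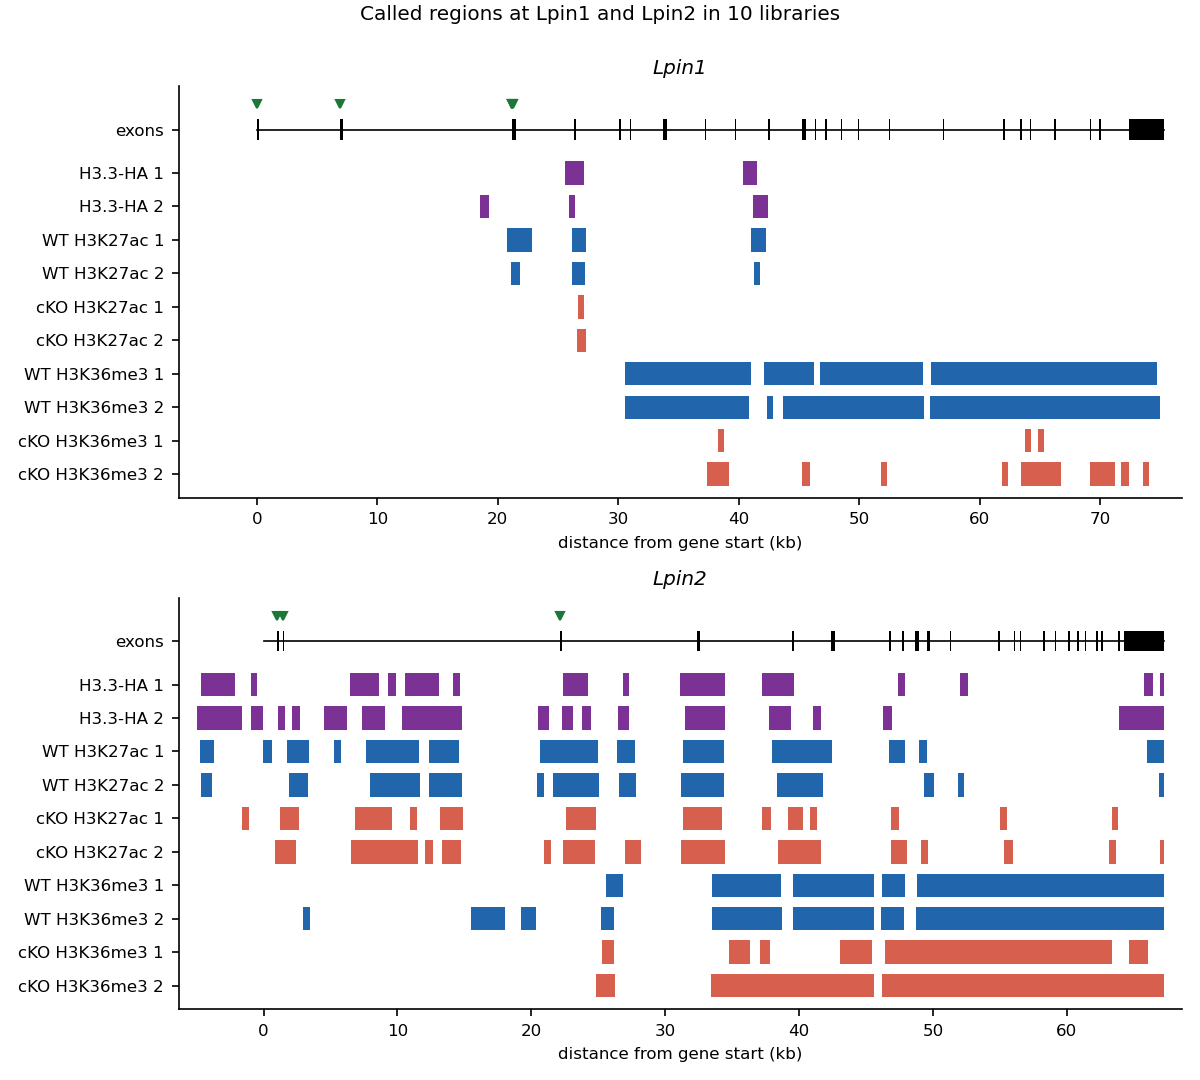
Called regions (bars) in each of the 10 libraries along Lpin1 and Lpin2, plotted by distance from the gene start in kb in the direction of transcription, with H3.3-HA in purple, WT in blue, cKO in red, exons of coding transcripts in black and their starts as green triangles. H3K36me3 bars fill both genes past their midpoint in WT (91.3 to 93.2% covered) and are short and scattered at Lpin1 in cKO (3.99% and 25.8%).

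H3K27ac at the lipins differed in extent and in the number of regions. Lpin1 held 3 merged H3K27ac regions in all, covering 5.66% and 2.88% of the window in WT and 0.624% and 0.996% in cKO. Both cKO libraries lay below both WT libraries (limma adjusted p = 0.161). Lpin2 held 18 merged regions, covering 36.6% and 30.4% in WT and 22.2% and 31.1% in cKO, with overlapping groups (limma adjusted p = 0.470). Of the 18, 6 were called in all 4 libraries, 1 was WT-only and 2 were cKO-only. The H3K27ac difference between the lipins, on the same scale as above, was 3.39 points (n = 2 each, exact two-sided permutation p = 0.667). It was -8.17 points with equal covered length and -0.915 points without cKO replicate 1, so its direction depended on the setting.

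The sites of Lpin1 acetylation could be placed one by one. No library held an H3K27ac region within 1 kb of the annotated gene start, the start of transcript Lpin1-202. A WT-only region (chr12:16588151-16590239) lay over a cluster of 4 coding starts, those of Lpin1-201, Lpin1-203, Lpin1-204 and Lpin1-207, 21.2 kb inside the gene. Within 1 kb of the Lpin1-201 start, 73.5% and 38.1% was covered in WT and 0% in both cKO libraries. No H3.3-HA region overlapped this site in either replicate. A second WT-only region (chr12:16568673-16569949), intronic and centred 41.7 kb from the gene start, overlapped H3.3-HA regions of both replicates. The third region (chr12:16583634-16584835), intronic and centred 26.7 kb from the start, was called in all 4 libraries and overlapped H3.3-HA in both replicates. Thus 2 of the 3 acetylated sites of Lpin1 were called in WT only and both lay inside the gene. Neither counted as WT-only when each WT library had to cover 50% of the region, since those of WT replicate 2 were shorter.

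The sequences of these sites are printed because they hold the Lpin1 regions that were present or absent with genotype, together with the annotated gene start that held none and the Lpin2-204 start, within 1 kb of which all 4 libraries held H3K27ac. The printed Lpin2 bases themselves were overlapped by H3K27ac regions of the cKO libraries and by none of WT. Promoters were taken from RefSeq (GRCm38.p6, 250 bases before to 50 after the start), which matched 6 of the 10 genes (Scd1, Scd2, Dgat1 and Dgat2 were not matched). The other sequences were read from the genome of the same build, as the 300 bases before the Lpin1-204 start and the central 300 bases of the 2 intronic regions. Each is written 5′ to 3′ on the strand of the gene. They lie at chr12:16610917-16611216, chr12:16589774-16590073, chr12:16569161-16569460, chr12:16584085-16584384 and chr17:71183728-71184027, in the order shown. Capitals mark matches on either strand to CACGTG (E-box), TCACNCCAC (a sterol regulatory element), CCAAT (bound by NF-Y), GGGCGG (GC box, bound by Sp1) and GGAAGT (core of the PU.1 site, a macrophage factor).
Lpin1 gene start: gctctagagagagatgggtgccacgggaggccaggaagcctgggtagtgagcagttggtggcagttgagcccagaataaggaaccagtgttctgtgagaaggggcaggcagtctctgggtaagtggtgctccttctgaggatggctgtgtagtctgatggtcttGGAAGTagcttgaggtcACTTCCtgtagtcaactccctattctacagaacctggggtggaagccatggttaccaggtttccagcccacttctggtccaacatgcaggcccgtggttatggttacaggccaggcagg
Lpin1 internal start: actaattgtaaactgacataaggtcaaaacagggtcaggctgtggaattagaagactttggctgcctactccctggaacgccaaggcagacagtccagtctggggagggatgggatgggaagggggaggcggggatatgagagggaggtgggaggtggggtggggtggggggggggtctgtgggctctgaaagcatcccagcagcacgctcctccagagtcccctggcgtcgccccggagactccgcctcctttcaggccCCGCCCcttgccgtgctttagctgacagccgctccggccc
Lpin1 distal region: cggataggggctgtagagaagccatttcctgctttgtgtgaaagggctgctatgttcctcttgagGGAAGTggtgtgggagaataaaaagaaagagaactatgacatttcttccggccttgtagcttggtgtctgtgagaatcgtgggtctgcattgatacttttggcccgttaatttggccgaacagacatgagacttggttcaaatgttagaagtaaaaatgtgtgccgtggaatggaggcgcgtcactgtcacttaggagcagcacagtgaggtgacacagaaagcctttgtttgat
Lpin1 shared region: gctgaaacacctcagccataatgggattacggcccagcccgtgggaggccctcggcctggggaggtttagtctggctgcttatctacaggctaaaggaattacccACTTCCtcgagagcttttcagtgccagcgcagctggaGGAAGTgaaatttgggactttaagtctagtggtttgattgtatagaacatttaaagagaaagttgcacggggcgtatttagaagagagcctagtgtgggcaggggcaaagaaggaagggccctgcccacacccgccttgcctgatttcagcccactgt
Lpin2 start: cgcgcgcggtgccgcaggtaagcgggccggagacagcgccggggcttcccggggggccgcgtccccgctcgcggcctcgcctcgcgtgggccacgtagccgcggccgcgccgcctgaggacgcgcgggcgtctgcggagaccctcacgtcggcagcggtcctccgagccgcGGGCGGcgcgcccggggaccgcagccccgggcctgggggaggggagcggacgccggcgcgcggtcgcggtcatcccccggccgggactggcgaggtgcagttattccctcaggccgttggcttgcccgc

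The gene start of Lpin1 held 2 PU.1 cores, its internal start 1 GC box, its distal region 1 PU.1 core and its shared region 2 PU.1 cores. The Lpin2 start held 1 GC box, and its GC content was 80.7% against 62.7% at the internal start of Lpin1 and 55.3% at the gene start. For comparison, 35.7% of 32851 RefSeq promoters held a GC box, 23.8% a PU.1 core, 37.4% CCAAT, 7.15% an E-box and 1.24% the sterol element. Of the central 300 bases of 12771 WT-only H3K27ac regions, 24.1% held a PU.1 core, and of those of 15388 regions called in all 4 libraries, 23.8%. The matches are descriptions of letters in these windows.

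Srebf1 (chr11:60199089-60222581, minus strand), the regulator of the group, had the widest H3K27ac difference of the 10 genes. H3K27ac covered 49.4% and 39.1% of its window in WT and 9.27% and 15.8% in cKO. Both cKO libraries stood far below both WT libraries, at 20.9% and 35.8% of the WT mean. The difference of -31.7 points had a limma adjusted p of 0.0765. It passed the threshold with regions of at least 1 kb (0.0353) and with equal covered length (0.0462), reached 0.131 with no filter, and lay between 0.168 and 0.249 with a library left out. As a description, 0.634% of genes tested had a difference at least as far below. Of its 9 merged regions, 3, with 12277 bp of merged length, were called in all 4 libraries, and the other 6, with 3607 bp, met none of the rules for all 4, WT-only or cKO-only. Srebf1 did hold a WT-only region when 50% of a region had to be covered or when only regions of at least 1 kb were used.

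Srebf1 is known to be transcribed from separate starts that give different isoforms, and its acetylated stretches around them were narrower in the cKO libraries. Within 1 kb of the Srebf1-201 start, coverage was 100% in both WT libraries and 67.7% and 85.3% in cKO. Within 1 kb of the Srebf1-207 start, 12.1 kb inside the gene, it was 100% and 96.7% in WT and 39.2% and 31.4% in cKO. Both starts had both cKO libraries lower, and the downstream one was covered less in cKO. H3K36me3 covered 37.5% and 40.1% of the window in WT and 21.1% and 30.1% in cKO, lower in both (limma adjusted p = 0.603). It lay mostly past the midpoint of the body, at 72.6% and 74.7% in WT and 51.1% and 66.5% in cKO. The coding genes Rai1 and Tom1l2 reach into the window of Srebf1. An H3K36me3 region (chr11:60196647-60208296) also overlapped Rai1, so it cannot be assigned to Srebf1 alone. No H3K27ac region of Srebf1 overlapped either gene.

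The promoters of Srebf1 and Fasn are shown because the former stayed acetylated at its core in cKO while the latter held almost no H3K27ac within 1 kb of its start in any library. Coordinates are chr11:60220578-60220877 (Srebf1-201), chr11:60210422-60210721 (Srebf1-207) and chr11:120824498-120824797 (Fasn-201), with the same source and motifs as above.
Srebf1 start: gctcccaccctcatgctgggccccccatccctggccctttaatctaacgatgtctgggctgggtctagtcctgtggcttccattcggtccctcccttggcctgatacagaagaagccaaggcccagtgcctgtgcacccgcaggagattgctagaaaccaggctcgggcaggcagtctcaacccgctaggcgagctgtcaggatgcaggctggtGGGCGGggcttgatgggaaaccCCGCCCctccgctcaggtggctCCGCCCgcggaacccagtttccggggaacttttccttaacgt
Srebf1 internal start: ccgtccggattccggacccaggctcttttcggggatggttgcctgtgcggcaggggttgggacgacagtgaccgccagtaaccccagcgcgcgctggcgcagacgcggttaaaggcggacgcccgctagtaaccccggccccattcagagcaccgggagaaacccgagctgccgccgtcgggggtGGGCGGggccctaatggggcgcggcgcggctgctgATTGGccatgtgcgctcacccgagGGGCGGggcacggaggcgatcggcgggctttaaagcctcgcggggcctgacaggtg
Fasn start: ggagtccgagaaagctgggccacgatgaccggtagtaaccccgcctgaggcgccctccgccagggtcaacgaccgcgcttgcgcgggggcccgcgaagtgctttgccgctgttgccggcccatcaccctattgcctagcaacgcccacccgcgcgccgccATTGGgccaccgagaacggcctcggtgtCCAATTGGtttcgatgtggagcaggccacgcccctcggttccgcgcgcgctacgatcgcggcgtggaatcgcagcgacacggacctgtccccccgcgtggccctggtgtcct

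The upstream Srebf1 start held 3 GC boxes, the downstream one 2 GC boxes and 1 CCAAT, and the Fasn start 3 matches to CCAAT, of which 2 on opposite strands overlap. None of the 8 printed sequences held the E-box or the sterol element in the letters searched.

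Fasn (chr11:120805846-120824547, minus strand) paired high H3K36me3 with almost no called H3K27ac. H3K36me3 covered 68.1% and 67.6% of its window in WT and 42.3% and 60.8% in cKO, lower in both (limma adjusted p = 0.591), and under equal covered length the direction turned. Each WT library held a single H3K27ac region of 501 bp, the narrowest width in the H3K27ac lists, which made 2.11% of the window in both. The pair lay at different places, centred 1.86 kb and 1.25 kb after the gene start, and cKO held none. The equal WT values thus came from the minimum width, and the limma adjusted p of 0.0601 ranged from 0.0207 to 0.0805 over the other unpaired settings with all 4 libraries. H3K27ac at Fasn was near the limit of what these lists resolve.

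Acaca (chr11:84129672-84401651, plus strand), the longest of the genes, was lower for both marks. H3K36me3 covered 15.7% and 16.8% of its window in WT and 1.16% and 3.31% in cKO (difference -14.0 points, limma adjusted p = 0.269). Of its 46 merged H3K36me3 regions 11 were WT-only and none was cKO-only. Over the genome 9.49% of merged H3K36me3 regions were WT-only and 2.45% cKO-only. The H3K36me3 regions upstream of the Acaca gene start also overlapped the coding gene Tada2a, so they cannot be assigned to Acaca alone. H3K27ac covered 4.31% and 4.15% in WT and 1.29% and 1.85% in cKO (limma adjusted p = 0.154), with 3 WT-only regions, all intronic, and none cKO-only. The direction was different close to an internal start. Within 1 kb of the Acaca-203 start, 50.2 kb inside the gene, H3K27ac covered 22.8% and 28.9% in WT and 78.6% and 51.3% in cKO, higher in both cKO libraries. The regions there lay 50.703 to 52.021 and 50.582 to 51.903 kb from the gene start in WT. In cKO they lay at 49.587 to 51.251 and 50.134 to 51.215 kb. The WT regions thus ran further past the downstream edge of the 2 kb counted, and more coverage there need not mean wider regions. H3.3-HA covered 33.3% and 32.1% of the same 2 kb. No H3K27ac region lay within 1 kb of the Acaca-201 start in any library.

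**Figure D3:**
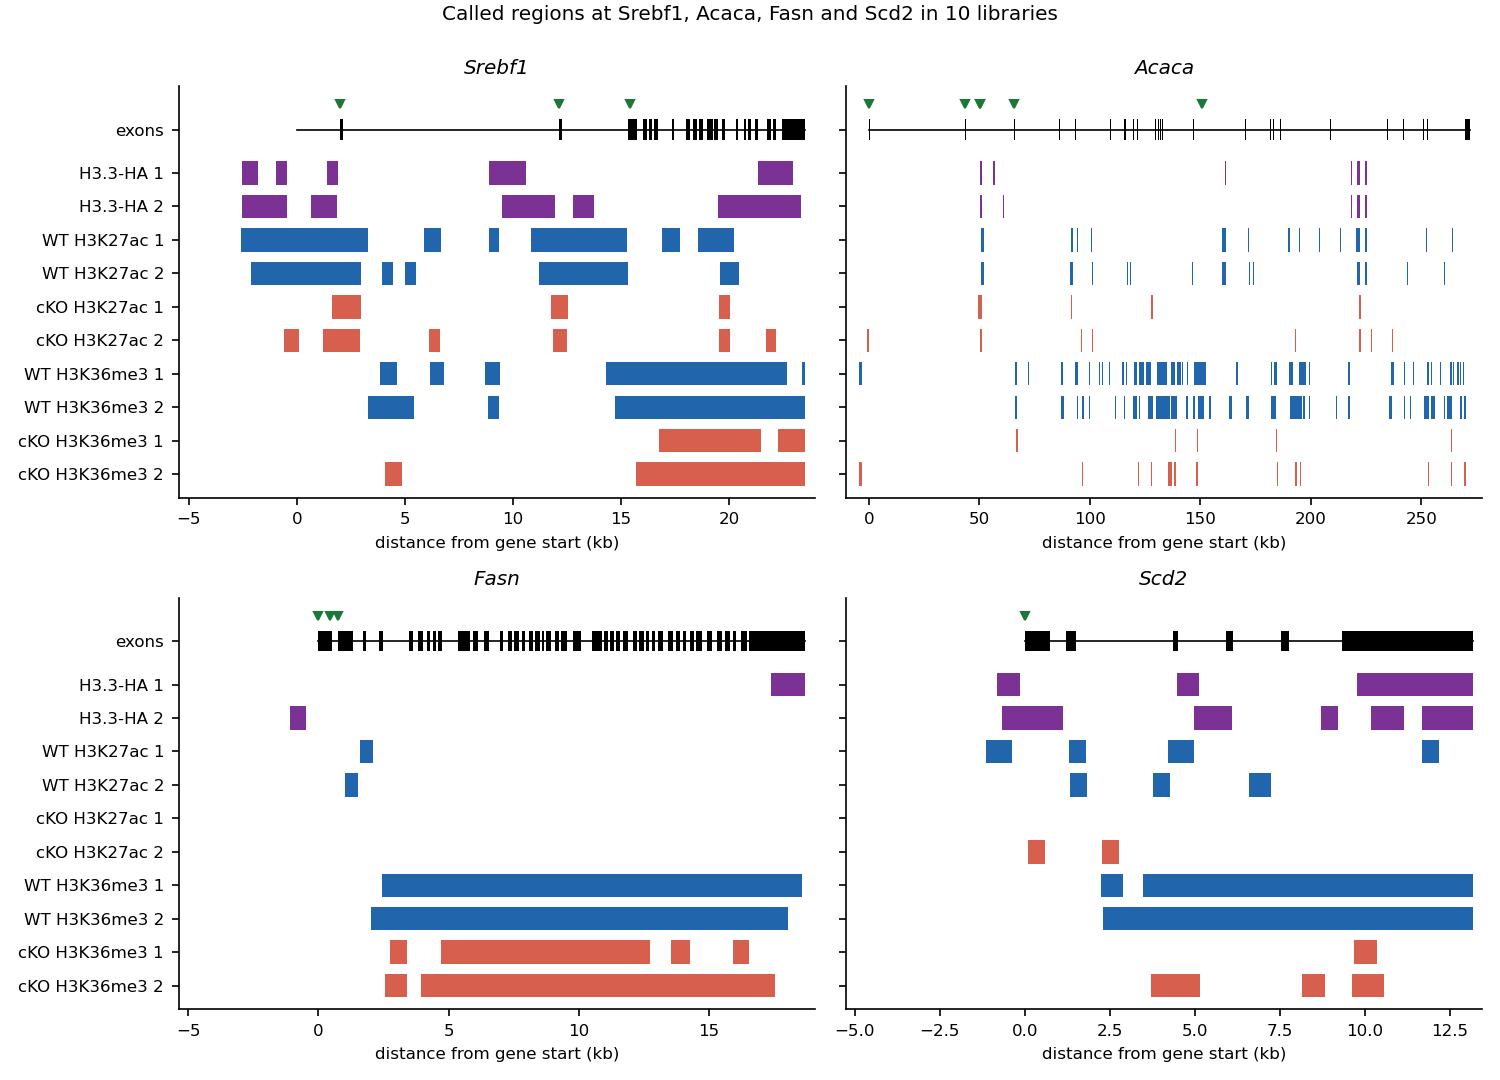
Called regions (bars) in 10 libraries along Srebf1, Acaca, Fasn and Scd2, by distance from the gene start in kb in the direction of transcription, with H3.3-HA in purple, WT in blue, cKO in red, exons in black and coding starts as green triangles. H3K36me3 fills Scd2 past its midpoint in WT (100% covered in both libraries) and little of it in cKO (10.5% and 24.9%), while at Fasn it stays long in cKO (50.9% and 87.7% past the midpoint).

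The desaturases Scd1 and Scd2, both on chromosome 19, differed in how much of the marks they carried. Scd2 (chr19:44293674-44306864, plus strand) had H3K36me3 over 56.9% and 59.9% of its window in WT and over 3.80% and 16.8% in cKO. The groups were far apart (difference -48.1 points, limma adjusted p = 0.222), and 0.10% of genes tested had a difference at least as far below. For Lpin1 that share was 0.217%. The values of both were descriptions, since the genes were named with such results known. H3K27ac at Scd2 covered 14.0% and 8.99% in WT and 0% and 5.51% in cKO, lower in both (limma adjusted p = 0.263), and no H3K27ac region of Scd2 was called in all 4 libraries. Its 2 WT-only regions lay 1.57 and 4.38 kb after the start. Scd1 (chr19:44394455-44407879, minus strand) held no H3K36me3 region in any library and 1 H3K27ac region, of 501 bp, in WT replicate 2. The desaturases are paralogs, and reads shared between them may be placed at either. The study aligned with Bowtie2 in local mode, and a filter on mapping quality is not given in the sources used here.

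Elovl6 (chr3:129532355-129638495, plus strand), the elongase, carried H3K27ac without H3K36me3. H3K27ac covered 10.3% and 9.99% of its window in WT and 1.5% and 6.71% in cKO, lower in both (limma adjusted p = 0.272). The libraries of cKO were unlike at the start: within 1 kb of it, 79.3% and 75.7% was covered in WT, 0% in cKO replicate 1 and 73.3% in cKO replicate 2. Its 2 WT-only regions, centred 80.6 and 99.4 kb inside the gene, were absent from both cKO libraries, and the first overlapped H3.3-HA in both replicates. H3K36me3 was 0% and 0.723% in WT and 0% in cKO.

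At the acyltransferases the WT and cKO groups overlapped for H3K27ac. At Dgat1 (chr15:76502015-76511953, minus strand) H3K27ac covered 6.71% and 3.35% in WT and 4.24% and 9.37% in cKO, (limma adjusted p = 0.689). H3K36me3 covered 24.1% and 25.6% of its window in WT and 12.96% and 12.97% in cKO, lower in both (limma adjusted p = 0.545). It lay in 1 merged region that runs on past the 3′ end of the gene. That region also overlaps the coding gene Hsf1, so it cannot be assigned to Dgat1 alone. At Dgat2 (chr7:99153658-99182719, minus strand) no H3K36me3 was called, and H3K27ac covered 1.47% in both WT libraries and 1.86% and 0% in cKO (limma adjusted p = 0.555). A region of 708 bp centred 1.24 kb upstream of Dgat2 was WT-only and overlapped H3.3-HA in both replicates.

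Coverage at annotated starts separated the genes again. Of 33 coding starts of the 10 genes, the 18 plotted are those with H3K27ac within 1 kb in any library, with starts under 0.1 kb apart shown once. The cluster of Lpin1 starts 21.2 kb inside the gene, Srebf1-203, Fasn-204 and Dgat1-201 had H3K27ac within 1 kb in both WT libraries and in neither cKO library. Lpin1-205, another internal start, had none in any library. The WT regions near Fasn-204 did not overlap each other, at 1.606 to 2.107 kb from the gene start in replicate 1 and 1 to 1.501 kb in replicate 2. At Dgat1-201 the values were 25.04% in both WT libraries, from a region of 501 bp in each. These regions did not overlap, at 0.431 to 0.932 kb from the gene start in WT replicate 1 and -0.949 to -0.448 kb in WT replicate 2. The equal values thus came from the minimum width and not from a shared site. The starts of Lpin2 did not share a direction. At Lpin2-203, 22.1 kb inside the gene, 100% and 74.2% was covered in WT and 25.1% and 54.4% in cKO. At Lpin2-213 the groups overlapped, with 45.2% and 3.95% in WT and 40.1% and 56.7% in cKO. At Lpin2-204 both cKO libraries were higher, with 45.2% and 25.04% in WT and 61.2% and 77.8% in cKO. The region there spanned 1.746 to 3.369 and 1.918 to 3.318 kb from the gene start in WT. In cKO it spanned 1.195 to 2.678 and 0.862 to 2.428 kb. The WT regions thus ran further past the downstream edge of the 2 kb counted, and more coverage there need not mean wider regions.

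**Figure D4:**
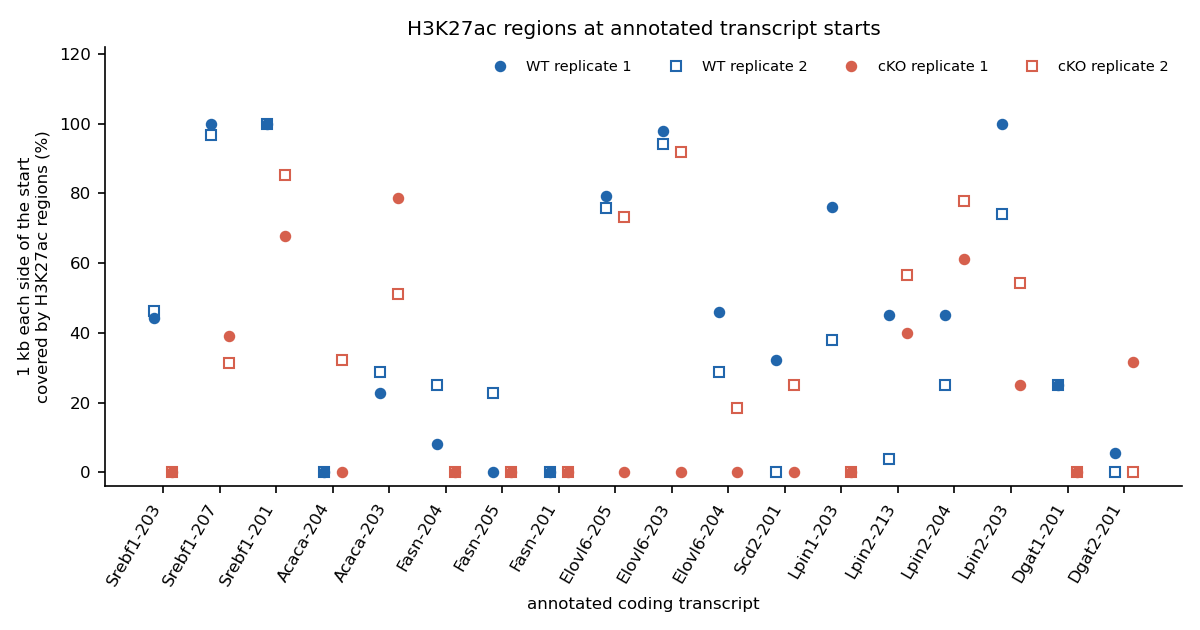
Percent of the 2 kb around each annotated coding start (x axis, transcript) covered by H3K27ac regions (y axis) in WT (blue) and cKO (red), with circles for replicate 1 and squares for replicate 2. Srebf1-207 and Lpin1-203 have both cKO points below both WT points, as has Dgat1-201, where the WT regions did not overlap each other. Acaca-203 and Lpin2-204 have both above, where the WT regions lay further downstream. At another Lpin2 start, Lpin2-203, both cKO points lie below both WT points.

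By presence of regions, 6 of 10 genes held a WT-only H3K27ac region (Acaca, Elovl6, Scd2, Lpin1, Lpin2 and Dgat2), against 37.3% of genes with an H3K27ac region. A cKO-only region was held by 1 of 10, Lpin2, against 17.3%. Of the 85 merged H3K27ac regions in the 10 windows, 11 were WT-only, 2 cKO-only and 14 called in all 4 libraries. Over the genome 14.2% of merged H3K27ac regions were WT-only, 3.34% cKO-only and 17.1% called in all 4, so these shares were near the background. Since the lists hold no heights, a missing region may lie just under the calling threshold.

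H3.3-HA was spread unevenly over the 10 genes, and coverage is compared here per length of window. Lpin2 had 26.6% and 35.7%, Scd2 25.9% and 32.4%, and Srebf1 17.8% and 36.6%. The means of these 3 lay above 95.8%, 95.1% and 94.2% of coding genes. The other genes were lower: Dgat2 at 3.78% and 10.2%, Dgat1 at 5.66% and 8.26%, Fasn at 5.53% and 2.67%, Lpin1 at 3.49% and 3.19%, Elovl6 at 2.71% and 3.03%, Acaca at 1.74% and 1.43% and Scd1 at 0% and 2.72%. In this order the 2 values overlapped between Lpin2, Scd2 and Srebf1, between Dgat2 and Dgat1, between Fasn and Lpin1 and between Acaca and Scd1, and the other neighbours did not overlap. Low and high H3.3-HA genes were both found among those with the least H3K36me3 kept in cKO (Lpin1 and Acaca, and Scd2). Of the 14 H3K27ac regions in these windows called in all 4 libraries, 10 overlapped H3.3-HA in both replicates, and of the 11 WT-only regions 5 did. Over the genome those shares were 61.2% of 15389 regions and 25.5% of 12771. The tagged line is neither of the compared genotypes, so the lists hold no H3.3 value for cKO.

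The wider pathway was read from 95 further genes of fatty acid, glycerolipid and phospholipid synthesis and lipid droplets. For H3K36me3, 42 of 75 with a region were lower in both cKO libraries and 4 were higher, beside 37.7% and 7.85% of all genes. Under equal covered length 37 were lower and 13 higher, beside 29.3% and 28.6% of all genes. For H3K27ac, 41 of 80 were lower and 13 higher, beside 38.2% and 17.4% of all genes. The counts became 29 and 23 under equal covered length, beside 22.7% and 37.7% of all genes. The median difference over the list was -8.63 points for H3K36me3 and -2.40 for H3K27ac, beside -4.99 and -1.02 over all genes tested. None of the 95 passed the adjusted threshold with limma.

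**Figure D5:**
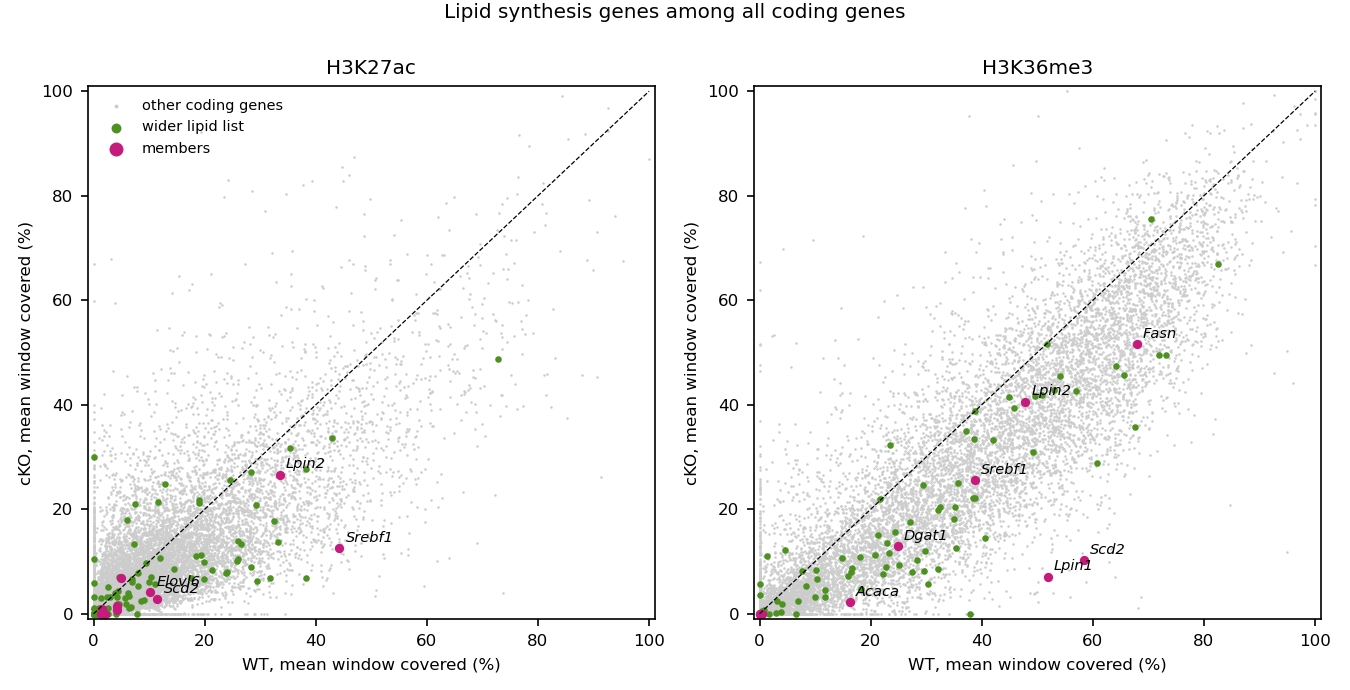
Mean window coverage in cKO (y axis, %) against WT (x axis, %) for H3K27ac and H3K36me3, means of 2 libraries, with the 10 genes in magenta, the 95 further lipid genes in green and other coding genes with a region in grey. Scd2 and Lpin1 lie far under the dashed line of equality for H3K36me3, at 58.4% and 51.9% in WT, and Srebf1 is the lowest relative to it for H3K27ac among the 10.

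By role, genes with lower H3K36me3 in both cKO libraries numbered 9 of 11 in glycerolipid acylation, 9 of 16 in phospholipid synthesis, 4 of 9 among regulators, 2 of 4 among carboxylases and synthases and 3 of 7 in elongation, beside 37.7% of all genes. No role was tested against another. The 9 of glycerolipid acylation included Gpam, Gpat4 and Agpat1 to Agpat4. Lpgat1, a lysophosphatidylglycerol acyltransferase, had 29.8% and 30.9% in WT and 1.09% and 10.2% in cKO. Among desaturases, Fads2, the delta-6 desaturase of polyunsaturated fatty acids, had 32.4% and 43.2% in WT and 0% in both cKO libraries (limma adjusted p = 0.169). Fads3, its neighbour and paralog, had 39.8% and 41.6% in WT and 10.2% and 19.0% in cKO. Ptdss1, a phosphatidylserine synthase, had 69.0% and 66.0% against 25.003% and 46.4%, and Lpcat2, which reacylates lysophosphatidylcholine, 62.2% and 59.3% against 13.4% and 44.5%. The 4 genes with higher values were Scd4, Nr1h2 (the liver X receptor beta), Oxsm and Plin5. At Scd4 they were 0% and 2.69% in WT and 5.38% and 16.7% in cKO.

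For H3K27ac the 5 largest differences below WT, among genes whose groups did not overlap, were at Insig1, Acsl3, Plin2, Crls1 and Agpat5, each of another role. Insig1, which retains the SREBP complex in the endoplasmic reticulum, had 38.4% and 38.2% in WT and 7.92% and 5.89% in cKO (limma adjusted p = 0.0525). Both cKO libraries were lower at 4 of 4 acyl-CoA synthetases with a region (Acsl1, Acsl3, Acsl4 and Acsl5), at 7 of 11 genes of glycerolipid acylation, with 3 higher, at 7 of 18 of phospholipid synthesis, with 5 higher, and at 1 of 5 desaturases, with 1 higher, beside 38.2% and 17.4% of all genes. Acsl3 had 28.9% and 34.5% against 6.43% and 7.34% (limma adjusted p = 0.0569). Plin2, the coat protein of lipid droplets, had 77.9% and 67.6% in WT against 50.5% and 47.1%. Crls1, the cardiolipin synthase, and Agpat5 were the other 2, with differences of -23.3 and -19.4 points. In the opposite direction, Cdipt, the phosphatidylinositol synthase, had 0% in both WT libraries and 26.7% and 33.3% in cKO (limma adjusted p = 0.0525), and Slc25a1, the mitochondrial citrate carrier, had 0% in WT and 9.99% and 11.2% in cKO (limma adjusted p = 0.0525). Degs1, Agpat1 and Pgs1 also had both cKO libraries higher, by 13.5, 12.02 and 11.9 points. Lpin3, Plpp1, Plpp2 and Plpp3, the other phosphatidate phosphatases, had no gene with non-overlapping H3K27ac groups, and Plpp1 and Plpp2 had both cKO libraries lower for H3K36me3.

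The genes whose 10 values lay nearest to those of Lpin1, by Euclidean distance in percentage points over 10 libraries, were Ttc3 (5.34), Gdpd1 (8.80), Dmxl2 (9.09), Gm21738 (9.81) and Mrps35 (9.94). Ttc3 had H3K36me3 over 49.7% and 51.9% of its window in WT and 3.14% and 14.5% in cKO, and Gdpd1 over 48.1% and 52.2% against 4.65% and 7.73%.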

How the data were processed

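Region lists of 10 CUT&RUN libraries were analysed. Per the submitters' notes and the study's methods, the authors trimmed reads with cutadapt, aligned them to mm10 with Bowtie2 and called regions with HOMER, one library at a time. Per the file headers, HOMER worked with peaks of 500 bp set at least 1000 bp apart, 4-fold enrichment over the IgG control and Poisson p-value thresholds of 1e-03 for peaks and 1e-04 over the control and the surrounding 10000 bp. The deposited values are start and end positions in bp, and the deposited score is constant, so signal, fold and p-value are unknown for single regions and the authors' test on read counts could not be run. Coverage therefore measures called extent only. The depth of each library was read from the headers.

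For each protein-coding gene of GENCODE M21, the percent of the window (body and 5 kb upstream) covered by regions was computed with Python 3.11.15 and numpy 2.4.6, on chromosomes 1 to 19, X and Y. None of 479596 regions ended past its chromosome in the reference. Arcsine square-root fractions were fitted with limma 3.58.1 (R 4.3.3, trend, Benjamini-Hochberg over genes with a region in at least 1 of 4 libraries, threshold 0.05), and the fit was tested on simulated data. Single values were compared by exact permutation. Merged regions were WT-only when both WT libraries and neither cKO library overlapped them by at least 1 bp, and cKO-only in the opposite case. Alternatives were the body alone, regions of at least 1 kb, lists of equal number, equal covered length, other filters, untransformed percentages, a replicate block and leaving out each library. The labels call the replicates biological but do not say which animal or culture each came from, so p-values measure the spread between these samples only.

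The genes were chosen by name, and they and the wider list were chosen with earlier results of these data known. Other genes were named by rule: for each mark, up to 5 wider-list genes with the largest difference in each direction among those whose groups do not overlap, and the 5 genes with values nearest to Lpin1. Of 96 symbols of the wider list 95 matched a protein-coding gene. Positions are 1-based on mm10 (GRCm38). Lists of the 5 IgG samples were not used here.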

Additional observations from a re-analysis of the deposited data

How the results depend on the processing

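The 6 members with both cKO libraries lower numbered 4 to 7 for H3K27ac and 4 to 8 for H3K36me3 over all alternatives. A region just below the calling threshold counts as 0, and the tags behind a single region are unknown.

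For H3K27ac, limma calls numbered 0 lower and 0 higher in the fit as reported, and 244 and 280 with gene bodies only, 547 and 600 with regions of at least 1 kb, 352 and 684 with lists of equal number, 259 and 631 with equal covered length, 608 and 414 with a region in at least 2 libraries, and 124 and 61 with no filter. Leaving out 1 library gave 0 to 815 lower and 0 to 849 higher. For H3K36me3 they were 0 and 0 as reported, 59 and 26 with no filter, and 0 to 5257 lower and 0 to 255 higher when 1 library was left out, the highest values coming without cKO replicate 2. The cause was not tested. Replicate numbers are shared between WT and cKO but nothing says that they pair samples. Deviations of same-numbered libraries correlated at -0.0267 for H3K27ac and 0.0612 for H3K36me3. With the replicate block, H3K27ac gave 0 calls and H3K36me3 404 lower and 139 higher, Lpin1 (limma adjusted p = 0.00544) and Scd2 (0.00947) among the lower. The other members tested for H3K36me3 lay between 0.106 (Acaca) and 0.881 (Lpin2). For H3K27ac the block raised the limma adjusted p from 0.0765 to 0.255 at Srebf1 and from 0.0601 to 0.258 at Fasn.

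Lpin1 minus Lpin2 for H3K27ac reversed to -8.17 points with equal covered length and to -0.915 without cKO replicate 1 (range over left-out libraries -0.915 to 7.69). Members higher in both cKO libraries for H3K27ac numbered 1 with lists of equal number, 2 with equal covered length and 0 to 1 with a library left out. Members with a WT-only H3K27ac region numbered 6 to 10 with a library left out, 10 of them without WT replicate 1. Members with a cKO-only H3K27ac region numbered 0 with regions of at least 1 kb, 2 with lists of equal number and 1 to 6 with a library left out. Members with a WT-only H3K36me3 region numbered 4 when 50% of a region had to be covered and 2 to 5 with a library left out, and those with a cKO-only one 0 to 1. Mean H3.3-HA coverage of the members, 11.5% ± 3.05, was 7.97% with regions of at least 1 kb.

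Single genes whose limma effect (arcsine scale, cKO minus WT) changed sign were Lpin2 for H3K27ac (0.0621 with equal covered length), Dgat1 for H3K27ac (-0.00266 without WT replicate 2, -0.0156 without cKO replicate 2, range over left-out libraries -0.0156 to 0.0881), Dgat2 for H3K27ac (0.0272 with gene bodies only, 0.0684 with lists of equal number, 0.0152 without cKO replicate 2, range -0.122 to 0.0152), Fasn for H3K36me3 (0.0209 with equal covered length) and Lpin2 for H3K36me3 (0.0652 with equal covered length, 0.00202 without cKO replicate 1, range -0.149 to 0.00202). Of the other single-gene values for H3K27ac and H3K36me3, 95 and 82 kept their direction and side of the threshold, and 10 and 8 passed it only under the alternative.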
